A study of Mus musculus with 6 samples.

Results

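The 42 miRNAs described here are known from differentiated tissues, and their levels were measured on AGO2 in mouse embryonic stem cells. They were chosen by name as miRNAs typical of neural, muscle, liver, blood, pancreas, mesenchymal, endothelial, skin or HOX-patterned cells. Earlier results of these data were known when they were chosen. All 42, among them mmu-miR-124-3p, mmu-miR-150-5p and mmu-miR-205-5p, were found among the 1978 mature miRNAs of the count tables, and the species prefix is left out of their names from here on. The cells are a line of genotype Spy3-Ago2 in every library, so that all libraries share the tagged AGO2, and the library names begin with E14. Whether the line is a single clone is not stated in the labels. They were grown on gelatin in medium with serum and the cytokine LIF, and no differentiating treatment is named in the labels. Both miRNA libraries came from this genotype and culture. The series also has 2 target libraries from pull-downs of the same protein and 2 input libraries of whole lysate, and its target peaks came as 1 list without values per library.

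AGO2 is the Argonaute protein that holds a miRNA and uses the seed, bases 2 to 8 of that miRNA, to find target RNAs. A miRNA is cut from a hairpin precursor, and usually 1 arm of the hairpin is kept as the guide while the other is discarded. Many miRNAs are restricted to a lineage: miR-124 and miR-9 mark neurons and their progenitors, miR-1 and miR-133 muscle, miR-122 hepatocytes, miR-150, miR-142 and miR-223 blood cells, and miR-205 and miR-203 stratified epithelia. Mouse embryonic stem cells are instead known for the miR-290/miR-295 cluster.

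Levels are given as CPM, the count of a miRNA for each 1000000 counts of its library. They were not divided by length, since the members with a known sequence were 20 to 23 bases long. Replicate 1 held 12562727 counts in all, and replicate 2 held 22908172. A count of 0 allows a level of up to 0.239 CPM in replicate 1 and 0.131 CPM in replicate 2, taking 3 counts as the limit. These limits and the intervals below cover counting error only. The labels do not say that the replicates were separate cultures, so their spread may be technical. No pull-down from cells without the tag was analysed here, so no background level was subtracted. As a check of the stem cell label, the 18 miRNAs of the miR-290/miR-295 cluster held 39.4% of replicate 1 and 38.8% of replicate 2. Because the cells were lysed in bulk, a few cells with much of a lineage miRNA cannot be told apart from many cells with little of it.

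The mature sequences of 34 members were found in RefSeq on GRCm38.p6, and these 34 had 32 different seeds. Of the 16 members with at least 100 CPM, 13 are printed here with the seed in capitals, because they include the leading members of the skin, mesenchymal, endothelial and liver groups. The sequences of miR-124-3p and miR-150-5p, the 2 most abundant members, and of miR-143-3p are not printed.
miR-205-5p: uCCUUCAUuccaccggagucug
miR-31-5p: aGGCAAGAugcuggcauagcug
miR-142a-5p: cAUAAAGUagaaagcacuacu
miR-142a-3p: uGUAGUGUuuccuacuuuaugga
miR-9-5p: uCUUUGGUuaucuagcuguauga
miR-21a-5p: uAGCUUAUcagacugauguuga
miR-7a-5p: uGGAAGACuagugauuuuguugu
miR-126a-3p: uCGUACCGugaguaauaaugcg
miR-138-5p: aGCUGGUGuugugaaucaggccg
miR-192-5p: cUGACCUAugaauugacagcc
miR-128-3p: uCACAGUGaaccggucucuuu
miR-219a-5p: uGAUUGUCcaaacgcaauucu
miR-194-5p: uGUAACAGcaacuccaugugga

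No seed was shared among these 13. Over the 34 members with a sequence, 22 (64.7%) began with U, against 40.9% of the 1679 listed miRNAs with a sequence. Their median GC content was 42.2%, against 52.2% over those 1679 miRNAs.

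Summed over the 42 miRNAs, AGO2 held 2.54% of its miRNA counts as lineage miRNAs in replicate 1 and 3.33% in replicate 2, a mean of 2.94% ± 0.56 (SD, n = 2, as for every mean below). The miR-290/miR-295 cluster held 13.3 times that mean. The sum was concentrated in few names. The 5 most abundant members, miR-124-3p, miR-150-5p, miR-205-5p, miR-31-5p and miR-142a-5p, made up 81.5% of it. The median member stood at 52.8 CPM, against 0.101 CPM for the median of all listed miRNAs, of which 766 had 0 counts in both libraries. At least 10 counts in both libraries were found for 36 of the 42 members, against 34.2% of all listed miRNAs. At least 100 counts in both were found for 25 members, against 21.6% of all listed miRNAs. The members were chosen with earlier results of these data known, and the listed miRNAs include both arms of many hairpins. No conclusion is therefore drawn from these differences. By mean level, 6 members lay above 1000 CPM, 10 between 100 and 1000, 9 between 10 and 100, 11 between 1 and 10, and 6 below 1 CPM. In the same order, these classes held 4.70%, 7.33%, 8.39%, 12.5% and 67.1% of all listed miRNAs. Lineage miRNAs thus ranged from abundant to undetected in the same libraries, as the plot of all members shows.

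**Figure D1:**
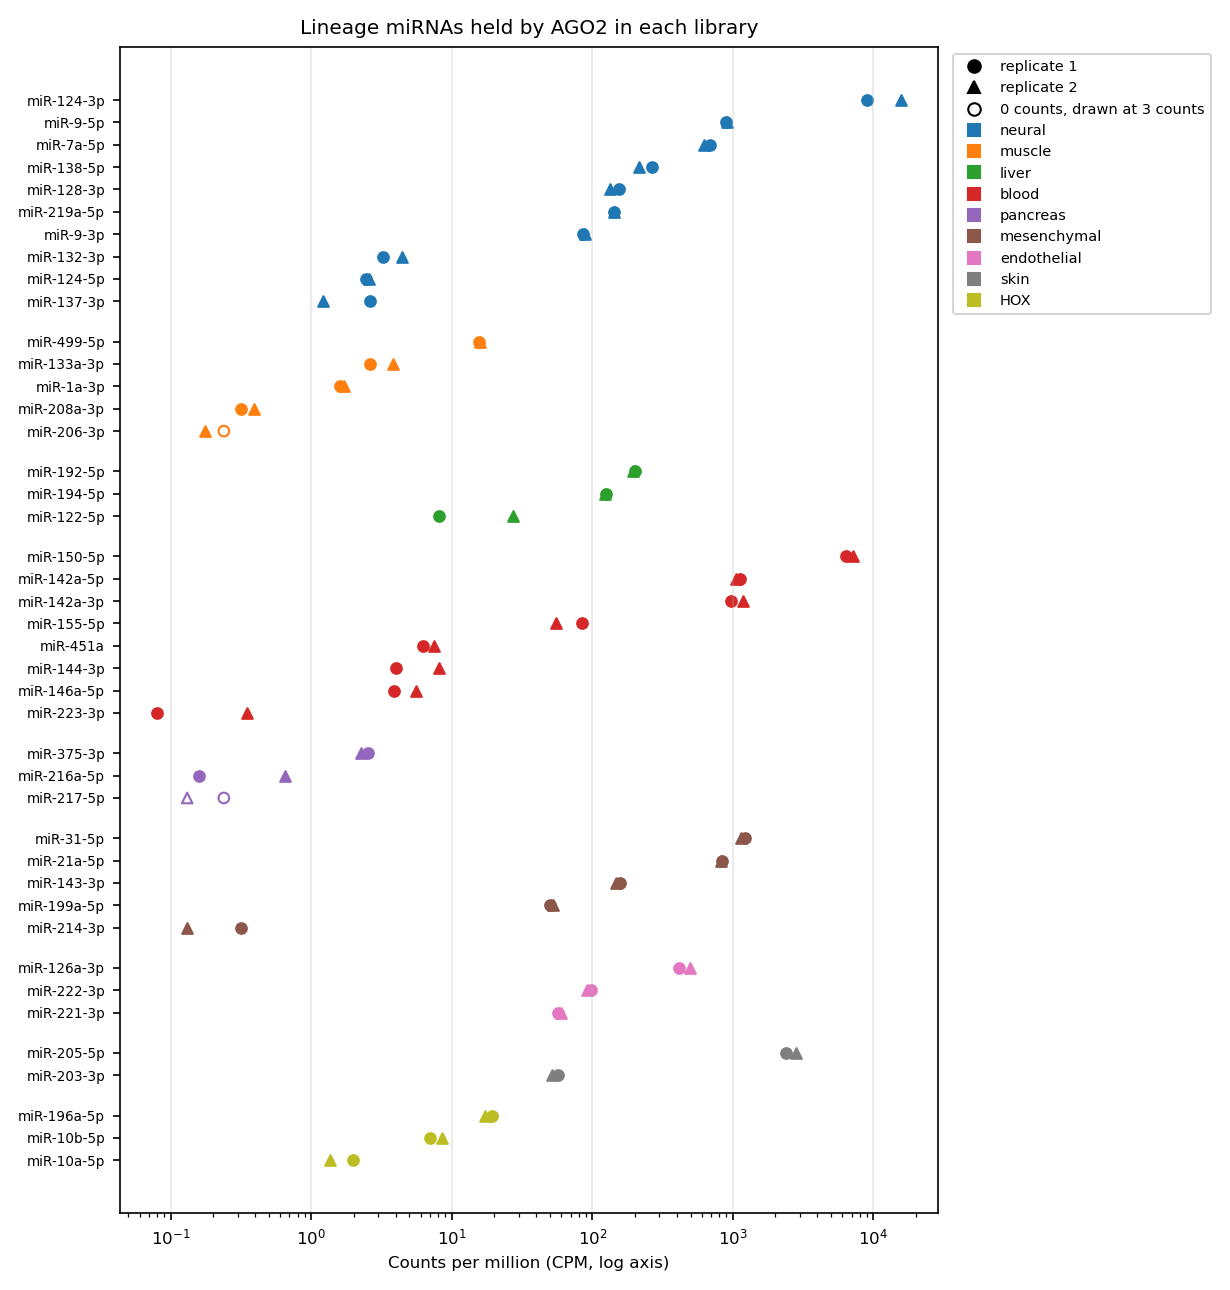
Level of each of the 42 lineage miRNAs in CPM on a log axis, grouped by tissue and sorted by mean level within it. Circles are replicate 1 and triangles replicate 2, and open symbols stand for 0 counts, drawn at the level of 3 counts. miR-124-3p lies farthest right at 8994 and 15653 CPM, and miR-217-5p had 0 counts in both libraries.

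The 9 tissue groups differed widely in level. The neural group of 10 miRNAs summed to 11227 CPM in replicate 1 and 17771 CPM in replicate 2, and the blood group of 8 to 8538 and 9498 CPM. Both stood above the other groups in each library. The 2 skin miRNAs summed to 2445 and 2855 CPM, the 5 mesenchymal miRNAs to 2268 and 2164 CPM. A middle range was formed by the 3 endothelial miRNAs with 565 and 647 CPM and the 3 liver miRNAs with 336 and 347 CPM. The HOX group of 3 summed to 28.2 and 27.3 CPM, and the muscle group of 5 to 20.1 and 22.0 CPM. The pancreas group of 3 was lowest, with 2.71 and 2.92 CPM. All 8 neighbouring pairs in this order had the same order in both libraries, and each mean difference exceeded the larger SD of its pair. The margin was narrowest between the neural and blood groups, 5481 CPM against an SD of 4628, and between the skin and mesenchymal groups, 434 CPM against an SD of 290. These sums depend on how many and which miRNAs stand for a tissue.

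**Figure D2:**
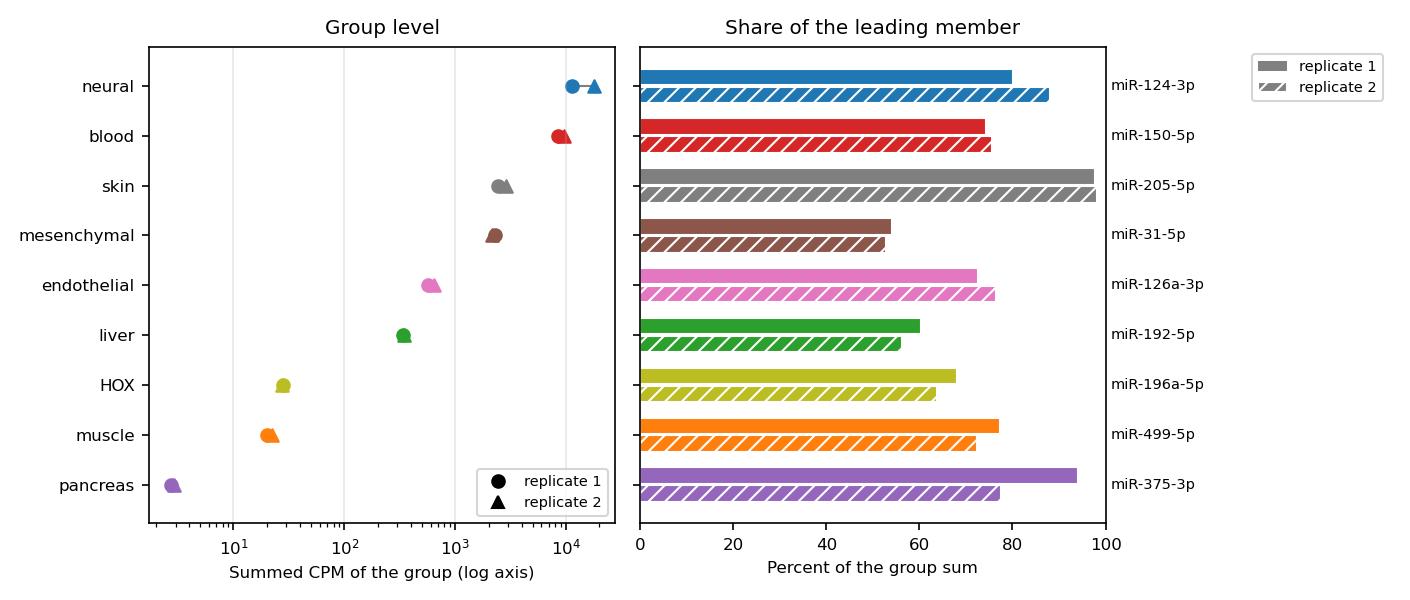
Left, the summed level of each tissue group in CPM on a log axis, with circles for replicate 1 and triangles for replicate 2. Right, the percent of each group sum held by its most abundant member, named beside the bars, with plain bars for replicate 1 and hatched bars for replicate 2. In every group 1 miRNA held over 50% of the sum, from 52.8% for miR-31-5p in replicate 2 to 98.2% for miR-205-5p in replicate 2.

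Within the neural group, miR-124-3p, which represses non-neuronal genes in neurons, had 8994 CPM in replicate 1 and 15653 CPM in replicate 2. It was the thirteenth most abundant of all listed miRNAs by mean level and held 80.1% and 88.1% of the neural sum. Without it the remaining 9 neural miRNAs summed to 2232 and 2119 CPM, a mean of 2176 ± 80 CPM, which is below the skin group and within 1 SD of the mesenchymal group. The neural group stood above the blood group only with this miRNA.

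miR-9-5p, a miRNA of neural progenitors with 3 hairpins in the mouse genome, had 887 CPM in replicate 1 and 904 CPM in replicate 2. Its 3p partner miR-9-3p, which is also a functional guide in neural cells, had 86.2 and 89.0 CPM. miR-7a-5p, found in neurons and endocrine cells, had 690 and 625 CPM. One of its 2 hairpins, Mir7-1, lies within the span of Hnrnpk on chromosome 13 (58392779 to 58392886, minus strand, GRCm38.p6), a gene for a widely expressed RNA-binding protein. miR-138-5p, known from dendrites, had 265 and 215 CPM. miR-128-3p, abundant in adult neurons and encoded within R3hdm1 and Arpp21, had 154 and 135 CPM. miR-219a-5p, a miRNA of maturing oligodendrocytes, had 142 and 143 CPM.

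Of the neural members, 3 were scarce. miR-132-3p, which is induced by neuronal activity, had 3.26 CPM in replicate 1 and 4.41 CPM in replicate 2. miR-137-3p, a regulator of neuronal maturation, had 2.63 and 1.22 CPM from 33 and 28 counts. miR-124-5p, the other arm of miR-124, had 2.47 and 2.58 CPM. Levels among the 10 neural miRNAs thus spanned more than 3 orders of magnitude, and all 10 had at least 10 counts in both libraries.

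In the blood group, miR-150-5p, typical of mature lymphocytes, had 6353 CPM in replicate 1 and 7181 CPM in replicate 2. It held 74.4% and 75.6% of the group. Both arms of miR-142a, a hairpin known from all haematopoietic lineages, followed: miR-142a-5p with 1115 and 1053 CPM and miR-142a-3p with 971 and 1188 CPM. The order of these arms turned between libraries. miR-155-5p, an activation miRNA of lymphocytes and macrophages, stood at 84.8 and 54.8 CPM.

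The remaining 4 blood miRNAs were much lower. miR-451a, an erythroid miRNA known for being matured by AGO2 itself without Dicer, had 6.29 CPM in replicate 1 and 7.51 CPM in replicate 2. Its erythroid neighbour miR-144-3p had 3.98 and 8.08 CPM. miR-146a-5p, a brake on inflammatory signalling, had 3.90 and 5.59 CPM. miR-223-3p, the leading miRNA of myeloid cells, was recorded with 1 count in replicate 1 and 8 counts in replicate 2. The lymphoid-type miR-150-5p and the myeloid-type miR-223-3p thus lay at opposite ends of the same group.

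The skin group consisted almost entirely of miR-205-5p, a miRNA of basal epithelial cells, with 2388 CPM in replicate 1 and 2803 CPM in replicate 2. Its hairpin lies within Mir205hg on chromosome 1 (193507463 to 193507530, minus strand, GRCm38.p6). miR-203-3p, which drives keratinocytes out of the cell cycle, had 57.1 and 51.4 CPM. The miR-205-5p level was 41.8 times that of miR-203-3p in replicate 1 and 54.5 times in replicate 2.

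Of the mesenchymal miRNAs, miR-31-5p had 1226 CPM in replicate 1 and 1143 CPM in replicate 2, and miR-21a-5p had 835 and 821 CPM. miR-21a-5p is also abundant in many proliferating cell types, and its hairpin lies within the span of Vmp1 on chromosome 11 (86584067 to 86584158, minus strand). miR-143-3p, typical of smooth muscle, had 157 and 147 CPM. miR-199a-5p had 50.3 and 52.4 CPM, from 632 and 1201 counts. miR-214-3p, in contrast, was recorded with 4 and 3 counts. The libraries lay within 1.5-fold of each other for the first 4 of these, and miR-214-3p was too scarce to give a fold between libraries.

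Among the endothelial miRNAs, miR-126a-3p, which lies in Egfl7 and supports vessel integrity, had 411 CPM in replicate 1 and 494 CPM in replicate 2. miR-222-3p had 97.4 and 92.2 CPM and miR-221-3p had 57.4 and 60.2 CPM. The liver group was carried by miR-192-5p with 202 and 195 CPM and miR-194-5p with 125 and 124 CPM, which are also known from intestine and kidney. The hepatocyte miRNA miR-122-5p had 8.12 CPM in replicate 1 and 27.4 CPM in replicate 2. The liver sum was thus mostly not from the miRNA most restricted to liver.

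Muscle, pancreas and HOX miRNAs were scarce. miR-499-5p, encoded in the myosin gene Myh7b, led the muscle group with 15.5 CPM in replicate 1 and 15.9 CPM in replicate 2. miR-133a-3p followed with 2.63 and 3.84 CPM and miR-1a-3p with 1.59 and 1.70 CPM. miR-208a-3p, encoded in the cardiac myosin gene Myh6, had 4 and 9 counts, and miR-206-3p, a skeletal muscle miRNA, had 0 and 4. In the pancreas group, the islet miRNA miR-375-3p had 2.55 and 2.27 CPM. The acinar miRNA miR-216a-5p had 2 and 15 counts, and its neighbour miR-217-5p had 0 in both libraries. Of the HOX miRNAs, miR-196a-5p had 19.2 and 17.4 CPM, miR-10b-5p 7.0 and 8.56 CPM and miR-10a-5p 1.99 and 1.35 CPM.

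Ranked by mean level, the 16 members with at least 100 CPM formed 15 neighbouring pairs, of which 13 kept their order in both libraries and 12 differed by more than the larger SD. The pairs that did not were miR-142a-5p with miR-142a-3p, miR-143-3p with miR-128-3p, and miR-128-3p with miR-219a-5p. The place of these miRNAs relative to each other is therefore not settled by 2 libraries. An SD from 2 libraries is itself uncertain, so the order of the other 12 pairs is a description only.

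The libraries were next compared with each other. With 1 group of 2 libraries no test between groups exists, so ratios are given as descriptions. Of the 25 members with at least 100 counts in both libraries, 22 lay within 1.5-fold. miR-124-3p, at 1.74-fold, and miR-122-5p, at 3.37-fold, were at least 1.5-fold higher in replicate 2, against 2.58% of the 427 miRNAs with that depth. miR-155-5p was lower in replicate 2, with a ratio of 0.647, against 2.34% of those miRNAs. The members had a median ratio of 0.990 and all 427 a median of 0.973. The SD of the log2 ratio was 0.43 for the members and 0.30 for all 427. The wider spread of the members included miR-122-5p, the member farthest from a ratio of 1.

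**Figure D3:**
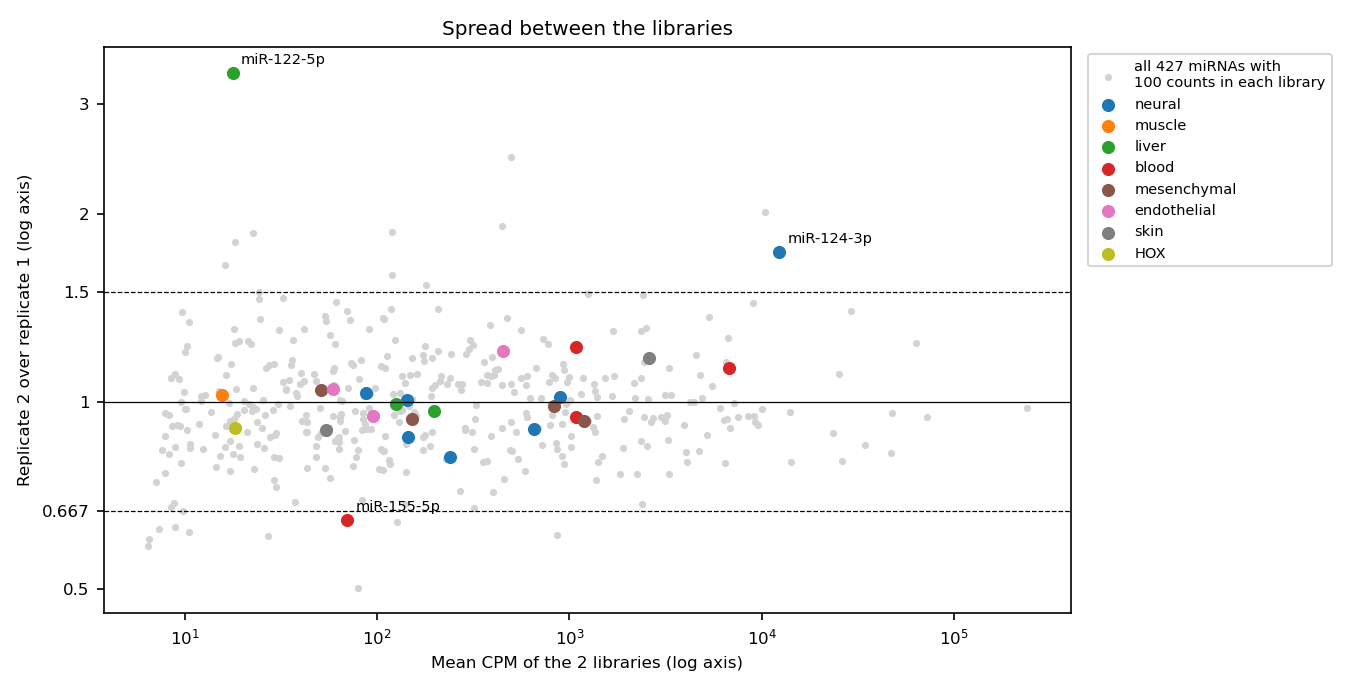
Ratio of the level in replicate 2 to that in replicate 1, on a log axis, against the mean level of the libraries in CPM, also on a log axis. Coloured points are the 25 lineage miRNAs that reached 100 counts in both libraries, grey points all 427 miRNAs of that depth, and dashed lines mark 1.5-fold in either direction. miR-122-5p at 3.37 and miR-124-3p at 1.74 lie above the band and miR-155-5p at 0.647 below it.

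The other arms of these hairpins gave a second reading of the same differences. Both arms of miR-122 were higher in replicate 2: miR-122-3p had 11 counts in replicate 1 and 94 in replicate 2, a ratio of 4.69 (95% exact binomial interval 2.5 to 9.71), and miR-122-5p had 102 and 627 counts, a ratio of 3.37 (2.73 to 4.20). These intervals overlap. The arms of miR-124 differed in this respect. miR-124-3p had a ratio of 1.74 (1.73 to 1.75), whereas miR-124-5p had 31 and 59 counts and a ratio of 1.04 (0.665 to 1.67), an interval that does not reach the ratio of its partner. This was not particular to miR-124. The arms of miR-142a had ratios of 1.22 (1.20 to 1.25) for 3p and 0.944 (0.925 to 0.964) for 5p. Those of miR-126a had 1.20 (1.16 to 1.24) for 3p and 0.963 (0.911 to 1.02) for 5p. For miR-132 the intervals of the arms overlapped, at 0.931 to 1.99 for 3p and 1.46 to 6.41 for 5p. The intervals cover counting error only, so they do not measure the spread between libraries. For miR-155 the other arm had 0 and 2 counts, too few to compare.

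With a minimum of 10 counts in each library, 2 more members differed at least 1.5-fold. miR-144-3p was higher in replicate 2 with a ratio of 2.03 (1.48 to 2.83), where 7.83% of the 677 miRNAs with that depth were higher. miR-137-3p was lower with a ratio of 0.465 (0.271 to 0.794), where 8.71% were lower. miR-451a, whose hairpin lies 99 bases from that of miR-144-3p, had a ratio of 1.19 (0.910 to 1.58). Its level was 1.58 times that of miR-144-3p in replicate 1 and 0.930 times in replicate 2.

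The arm held by AGO2 was examined for 22 member hairpins, or sets of hairpins, whose arms together reached 100 counts in both libraries. Arms were paired by name, and the other arms of duplicated hairpins were added up. For 18 of the 22, the named arm held at least 90% of the counts in both libraries. Over all 282 listed hairpins of that depth, 72% had 1 and the same arm at 90% or more in both libraries. miR-205-5p held 99.99% in each library, and miR-124-3p held 99.97% in replicate 1 and 99.98% in replicate 2. miR-150-5p held 99.7% and 99.8%. miR-9-5p held 91.1% and 91.0% and miR-219a-5p held 90.8% and 92.0%, so that their partners were also present on AGO2. The hairpins of the 3 most abundant lineage miRNAs were thus represented almost only by their known guide.

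The other 4 hairpins were less one-sided. miR-142a was evenly divided, with 46.5% of its counts on the 3p arm in replicate 1, with a 95% Wilson interval of 45.9 to 47.1, and 53.0% (52.6 to 53.4) in the other library. The even split was thus crossed between libraries. miR-126a-3p held 72.1% (71.0 to 73.1) of its hairpin in replicate 1 and 76.3% (75.6 to 77.0) in replicate 2. Its partner miR-126a-5p stood at 159 and 153 CPM, and of the 42 other-arm names that are not members, it was the only one at 100 CPM or more. miR-499-5p held 72.8% (67.1 to 77.7) and 66.2% (62.2 to 70.1), and this difference of 6.52 percentage points was the largest of the 22. miR-122-5p held 90.3% (83.4 to 94.5) and 87.0% (84.3 to 89.2). Of these 42 names, 14 had 0 counts in both libraries, against 38.7% of all listed miRNAs. The hairpins of miR-199a were left out of the 22, because the 3p arm has the same mature sequence as miR-199b-3p. That arm is among the 14 names with 0 counts, and whether this comes from how reads were assigned was not tested.

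**Figure D4:**
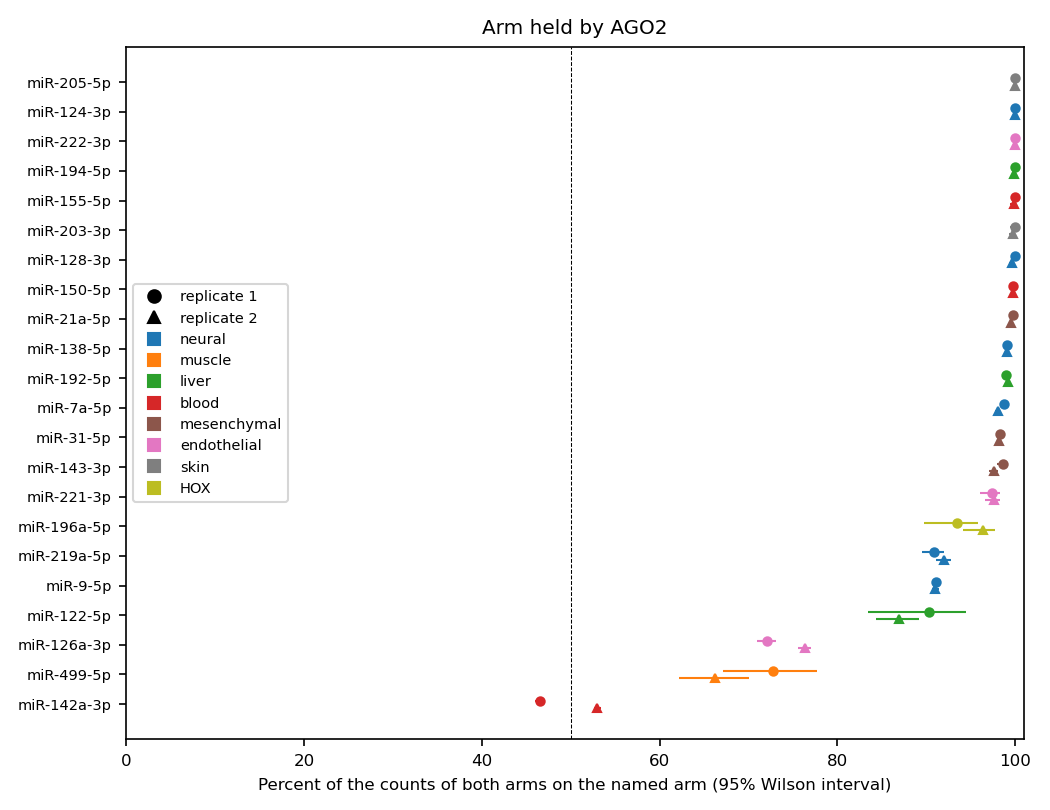
Percent of the counts of both arms that fell on the named arm, for 22 hairpins or sets of hairpins, with circles for replicate 1, triangles for replicate 2 and bars for the 95% Wilson interval. Colours mark tissue groups. Most points lie above 90%, those of miR-126a-3p and miR-499-5p between 66.2% and 76.3%, and those of miR-142a-3p at 46.5% and 53.0%, on either side of an even split.

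Several members are neighbours in the genome and may be cut from a common transcript. Mir194-2 and Mir192 lie 115 bases apart on the plus strand of chromosome 19 (GRCm38.p6, 6264643 to 6264728 and 6264844 to 6264932). miR-192-5p was 1.61 times as abundant as miR-194-5p in replicate 1 and 1.57 times in replicate 2. miR-194-5p also has a hairpin on chromosome 1, 195 bases from that of miR-215-5p, which had only 2 and 13 counts. Mir221 and Mir222 lie 504 bases apart on the minus strand of chromosome X, and miR-222-3p exceeded miR-221-3p 1.70-fold in replicate 1 and 1.53-fold in replicate 2. In both of these regions the neighbours stayed within 2-fold of each other. miR-451a and miR-144-3p, given above, were also within 2-fold of each other in both libraries, and miR-212-3p was 2.56 and 1.58 times as abundant as its neighbour miR-132-3p.

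The pair of miR-199a-5p and miR-214-3p differed far more. Mir199a-2 and Mir214 lie 5444 bases apart on the plus strand of chromosome 1, both within the spans of Dnm3 and Dnm3os. miR-199a-5p had 632 and 1201 counts, and miR-214-3p had 4 and 3. miR-199a-5p is also encoded by Mir199a-1, within the span of Dnm2 on chromosome 9, and the counts do not tell its hairpins apart. Mir216a and Mir217, 6644 bases apart on chromosome 11, were both near the limit of detection. Mir206 lies 3686 bases from Mir133b, and miR-133b-3p had 1 and 9 counts, so that these pairs were too scarce to compare.

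Some members that share their seed with another listed miRNA are printed together with it. For pairs of nearly the same sequence, the counts also depend on how similar reads were assigned, which the labels do not state. Capitals mark the seed, and positions are counted from 1 at the 5′ end.
miR-10a-5p: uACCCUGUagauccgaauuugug
miR-10b-5p: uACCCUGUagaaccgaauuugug
miR-196a-5p: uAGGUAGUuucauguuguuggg
miR-196b-5p: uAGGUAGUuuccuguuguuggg
miR-146a-5p: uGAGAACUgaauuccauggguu
miR-146b-5p: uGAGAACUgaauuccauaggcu
miR-221-3p: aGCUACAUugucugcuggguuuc
miR-222-3p: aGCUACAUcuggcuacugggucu
miR-132-3p: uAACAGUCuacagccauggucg
miR-212-3p: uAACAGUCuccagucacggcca

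miR-10a-5p and miR-10b-5p, from the HoxB and HoxD regions, differ by U12A, and miR-10b-5p was 3.52 times as abundant in replicate 1 and 6.32 times in replicate 2. miR-196a-5p and miR-196b-5p differ by A12C, and miR-196b-5p had only 3 and 14 counts against 241 and 398 for miR-196a-5p. miR-146a-5p and miR-146b-5p differ by G18A and U21C. Here the partner outside the 42 was the more abundant one: miR-146b-5p had 91.0 and 124 CPM, which was 23.3 and 22.2 times the level of miR-146a-5p. miR-212-3p had 8.36 and 6.98 CPM, more than its neighbour and seed partner miR-132-3p in each library. miR-7a-5p exceeded miR-7b-5p, which has the same seed, 211-fold in replicate 1 and 207-fold in replicate 2. Within seed families, then, 1 member dominated in the miR-7, miR-146 and miR-196 families and both were of similar order in the miR-221/miR-222 and miR-132/miR-212 families.

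A further 42 miRNAs of the same tissues were set beside the members. Like the members, they were chosen with earlier results of these data known, so they are not an independent check. A depth of 10 counts in each library was reached by 26 of the further 42, where the share of all listed miRNAs was 34.2%. By mean level, 7.33% of all listed miRNAs lay between 100 and 1000 CPM and 4.70% above 1000 CPM. Because of how the names were chosen, these shares are given for description only. Among the further 42, 9 stood at 100 CPM or more by mean level. The highest was miR-378a-3p, listed with muscle but also made in many metabolically active tissues, with 4477 CPM in replicate 1 and 6127 CPM in replicate 2. It stood far above the sum of the 5 muscle members, whereas the other 3 further muscle names summed to 0.0796 and 0.393 CPM. miR-342-3p, listed with blood, had 2256 and 2615 CPM. Of the mesenchymal names, miR-145a-5p had 1456 and 1589 CPM, miR-99b-5p 1292 and 1380 CPM and miR-22-3p 155 and 146 CPM. miR-145a-5p was 9.30 times as abundant as miR-143-3p, with which it shares a primary transcript, in replicate 1 and 10.8 times in replicate 2. The further neural names were lower: miR-125b-5p had 188 and 192 CPM, miR-218-5p 128 and 103 CPM and miR-129-1-3p 115 and 89.97 CPM. The further liver, pancreas and HOX names summed to less than 1 CPM each in both libraries. Group levels therefore depended strongly on the names chosen. As a mean over the libraries, the 10 neural members summed to 14499 CPM, against 592 CPM for the 16 further neural names. The 2 skin members summed to 2650 CPM, against 85.6 CPM for the 2 further skin names. The 3 endothelial members summed to 606 CPM, against 3.53 CPM for the 1 further endothelial name. The 3 liver members summed to 341 CPM, against 0.552 CPM for the 3 further liver names. For muscle the 4 further names had the higher sum, 5302 CPM, against 21.1 CPM for the 5 members. The blood sums were 9018 CPM for the members and 2561 CPM for the further names, and the mesenchymal sums were 2216 and 3021 CPM.

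The peak list was searched for genes reported elsewhere as targets of the members, to see where AGO2 peaks lay on them. Of 77 listed genes, 18 (23.4%) had at least 1 peak within the gene span, against 8.29% of all 21896 protein-coding genes. The list was drawn up with earlier results of these data known, and how strongly these genes are expressed in the cells was not tested. The peaks name no miRNA, and a gene with a peak may be bound through any miRNA that AGO2 holds. Distances run from the peak to the end of the gene span that lies downstream on the strand of the peak. The mm10 coordinates of the peaks were set against GRCm38.p6 gene spans, which use the same chromosome coordinates.

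Of the 12 listed targets of miR-124-3p, 4 had peaks. Ptbp1, which encodes a repressor of neuronal splicing, had 4 peaks on chromosome 10, all within 1895 bases of its end, the last from 79864353 to 79864421. Lamc1, a laminin subunit gene, had 4 peaks within 1383 bases of its end on chromosome 1, the last from 153219002 to 153219070. Iqgap1, a scaffold protein gene, also had 4, but these lay 14385 to 48176 bases from the end. Rest, the gene for a repressor of neuronal genes and listed also for miR-9-5p, had 6 peaks, 3000 to 17699 bases from the end. Ctdsp1, Ctdsp2, Ctdspl, Vamp3, Itgb1, Sox9, Cdk6 and Ezh2 had none.

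For the other members, Cdkn1b and Kit, the classical targets of miR-221-3p and miR-222-3p, had 1 peak each, at 1095 and 303 bases from the end. Of the miR-155-5p targets, Jarid2 had 13 peaks, spread from 483 to 166489 bases from the end, and Bach1 had 1, at 1931 bases. The miR-21a-5p target Spry2, which encodes an inhibitor of growth factor signalling, had 2 peaks, at 862 and 933 bases. The miR-142a-3p target Wasl had 2 peaks, at 1694 and 1971 bases. Of the 2 listed targets of miR-122-5p, Aldoa, a glycolysis gene, had 3 peaks, 477 to 715 bases from the end, and Slc7a1, an amino acid transporter gene, had none. Ptbp2, Nfe2l2, Hdac4 and Spred1 had 1 peak each, 268 to 2053 bases from the end. They are listed for miR-133a-3p, miR-144-3p, miR-1a-3p and miR-126a-3p in that order, of which only miR-126a-3p reached 100 CPM. The single peaks of Klf5 and Zeb1 lay farther away, at 9936 and 82795 bases. The single listed target of miR-150-5p, Myb, had no peak, nor had any of those listed for miR-31-5p, miR-7a-5p, miR-203-3p, miR-375-3p, miR-10a-5p or miR-196a-5p. Peaks were also absent from all genes listed for miR-128-3p, miR-132-3p, miR-137-3p, miR-192-5p, miR-223-3p, miR-451a, miR-146a-5p, miR-199a-5p and miR-10b-5p.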

How the data were processed

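RNA bound to Spy3-AGO2 was isolated through SpyCatcher3 and a gel slice, ligated to adapters with random bases and sequenced as single-end reads, per the labels' protocols. The authors deposited raw counts per mature miRNA for each of 2 miRNA libraries and 1 peak list, whose score column is 0 for every peak in the deposited file and was not used. Tools listed without roles, per the submitters' processing notes, are Bowtie2 2.4.2, STAR 2.5.2a, cutadapt 2.10, deepTools 3.1.3, UMI-tools and DESeq2 1.36.0, with the build mm10. The sources used here do not state whether identical molecules were collapsed or where a read fitting more than 1 miRNA was counted. Uncollapsed duplicates would make the intervals too narrow. A last row naming no miRNA held 0 counts and was left out.

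Counts were divided by the library total. Shares have 95% Wilson intervals and ratios between libraries exact binomial ones. No contrast between groups exists, so no test was run. Alternatives used edgeR 4.0.16 TMM and DESeq2 1.42.0 size factors (R 4.3.3). Peaks were assigned by midpoint to RefSeq gene spans (GRCm38.p6), irrespective of gene strand. Python 3.11.15, pandas 2.3.3 and scipy 1.17.1 were used. The members, lists and target genes were chosen with earlier results of these data known. Every member was named, with further miRNAs at 0.01% or more and listed target genes with a peak. Genes named without a peak were picked with the counts of peaks in view. The ratio step was tried on simulated counts with counting error only. There the ratios were rescaled by the median of the unchanged miRNAs, which was not done for the ratios given here. Of the listed target genes with a peak, 1 is not reported here by name.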

Additional observations from a re-analysis of the deposited data

How the results depend on the processing

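With miR-290a-5p left out of the library total, every group sum rose: to 27.6 CPM for muscle, 448 for liver, 11832 for blood, 3.69 for pancreas, 2908 for mesenchymal, 795 for endothelial, 3476 for skin, 36.4 for HOX and 38538 for all members, each by more than the SD between libraries, except for the neural sum, which rose by less than its SD. Without its most abundant member, each group fell: neural to 2176 CPM, muscle to 5.32, liver to 142, blood to 2251, pancreas to 0.407, mesenchymal to 1031, endothelial to 154, skin to 54.2, HOX to 9.45 and all members to 17058. A smaller total raises every sum, and removing a member lowers its sum. Both directions were thus fixed in advance, and the values give the sizes only. The pancreas sum was 2.41 CPM with only miRNAs of at least 10 counts in each library. With that minimum, 5 in place of 3 members differed at least 1.5-fold between libraries. TMM and DESeq2 size factors moved no group sum by more than its SD and gave the same number, 3, past 1.5-fold. At least 1 count in each library was met by 40 members, and 36 to 37 members had 10 counts when 1 library was left out. The named arm held 90% or more in 18 of 22 hairpins at 100 counts and in 25 of 31 at 10 counts. The number of listed genes with a peak was 18 under any overlap and with the whole peak inside the gene. No paired analysis was possible because values exist for 1 group of libraries only. Depth limits what can be said of the 6 members without 10 counts in both libraries.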
